A study of Homo sapiens with 4 samples.

Results

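Enzymes of the pentose phosphate pathway were followed in CaSki cells, a human papillomavirus-positive line of cervical squamous carcinoma, after lentiviral introduction of ZNF750 or of GFP as the control. ZNF750 is a zinc finger factor that drives late differentiation of the epidermis, and the study asked which genes it regulates in squamous cell carcinoma. All groups were the same cell line, kept in DMEM whose fetal bovine serum the labels list at 0%, and each group had 2 arrays. The labels give neither the time after transduction nor the promoter that drove the introduced gene, nor whether cells were cloned or pooled. The enzymes were taken as every probe set annotated with exactly 1 gene symbol, equal to PGLS, PGD, RPIA, RPE, TALDO1 or TKT. This gave 16 probe sets for 6 genes among the 54675 probe sets of the table: 4 for PGLS, 3 for PGD, 1 for RPIA, 4 for RPE, 1 for TALDO1 and 3 for TKT. No filter on low values was applied, so all 16 were tested.

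The pentose phosphate pathway branches from glycolysis at glucose 6-phosphate. Its oxidative branch, which includes PGLS and PGD, makes NADPH for lipid synthesis and for the reduction of glutathione and thioredoxin, and delivers a pentose phosphate. Its non-oxidative branch interconverts pentose phosphates (RPIA and RPE) and exchanges carbon with glycolytic sugars (TKT and TALDO1), which supplies ribose for nucleotides. PGD, TKT and TALDO1 are known targets of NRF2, the transcription factor of the antioxidant response.

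PGD, TALDO1 and TKT were lower in the ZNF750-labelled arrays, by 1.45-fold, 1.30-fold and 1.17-fold to 1.28-fold on the probe sets that passed. The other probe sets of PGD and TKT did not pass, and TALDO1 had only 1 probe set. RPIA and RPE did not pass on any probe set, and PGLS rose on 1 of its 4. Signals are log2 RMA values throughout, and differences are ZNF750 minus GFP with limma's standard error (n = 2 arrays per group). Of the 16 probe sets, 4 fell, 1 rose and 11 did not pass (limma, adjusted p under 0.05 over all probe sets). Among all probe sets tested, 7.19% fell and 4.3% rose. Calls were more frequent among bright probe sets: of those with a mean signal over 9, a level chosen after the values were seen, 24.3% fell and 11% rose. The enzymes had 9 such probe sets, of which 4 fell. The median difference was -0.072 over the 16 enzyme probe sets and 0.026 over all probe sets. Of the 16, 13 lay above the median level of all probe sets. Over every probe set above that level the median difference was -0.017. In bulk RNA, fewer cells expressing a gene and less of its RNA per cell cannot be told apart.

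The upstream sequences of the 3 genes that fell are shown because each of these members had a probe set that passed as lower. They cover the 250 bases before the RefSeq transcription start (GRCh38.p14), 5′ to 3′ on the gene's own strand, and all 6 genes had an entry. Capitals mark matches on either strand to CCAAT, the box bound by NF-Y, to GGGCGG, the GC box bound by SP and KLF factors, and to TGACNNNGC, the core of the antioxidant response element. Where GC boxes overlap, the capitals run together.
PGD, chr1:10398814-10399063, plus strand: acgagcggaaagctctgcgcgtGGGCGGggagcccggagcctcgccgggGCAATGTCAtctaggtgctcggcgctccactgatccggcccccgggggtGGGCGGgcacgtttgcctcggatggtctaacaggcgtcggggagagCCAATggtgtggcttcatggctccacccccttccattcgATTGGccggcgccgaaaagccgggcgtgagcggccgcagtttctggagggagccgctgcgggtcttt
TALDO1, chr11:747214-747463, plus strand: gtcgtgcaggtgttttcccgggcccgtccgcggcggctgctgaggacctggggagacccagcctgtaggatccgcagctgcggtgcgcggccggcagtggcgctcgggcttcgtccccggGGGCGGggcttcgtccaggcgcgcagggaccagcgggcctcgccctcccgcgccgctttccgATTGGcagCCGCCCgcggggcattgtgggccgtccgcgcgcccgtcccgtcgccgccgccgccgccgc
TKT, chr3:53256023-53256272, minus strand: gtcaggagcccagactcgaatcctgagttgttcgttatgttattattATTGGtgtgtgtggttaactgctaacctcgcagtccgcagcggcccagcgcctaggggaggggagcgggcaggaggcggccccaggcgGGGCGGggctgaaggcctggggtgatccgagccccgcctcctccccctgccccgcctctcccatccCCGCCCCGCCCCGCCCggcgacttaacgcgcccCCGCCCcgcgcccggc

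CCAAT occurred in the windows of PGD (2 matches), TALDO1 (1), TKT (1), RPIA (1) and RPE (1) and not in that of PGLS, against 32% of 35116 RefSeq windows of the same length. GGGCGG occurred in PGD (2), TALDO1 (2), TKT (5), RPIA (1) and RPE (3), against 42.6% of all windows. G and C made up 60.0% (RPIA) to 78.4% (TALDO1) of the bases in the enzymes' windows, and the share among windows of like composition was not tested. The letters TGACNNNGC occurred once in PGD, on the minus strand and starting 201 bases before the transcription start, and once in RPE, against 10.9% of all windows. Both the genes that fell and genes that did not pass thus held each of these motifs. These matches describe letters only, and binding was not measured.

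Before the enzymes are taken up singly, a few measures of the arrays as a whole bear on them. The ZNF750 probe set 219995_s_at read 2.13 and 2.37 in the GFP arrays and 2.23 and 2.29 in the ZNF750-labelled arrays, near the lowest values of the table, and so did not show the introduced gene. Its probe positions relative to the introduced sequence were not used here, so it does not check the labels. A larger excess of the control probe set at the 3′ end over that at the 5′ end is a sign of less intact RNA. For ACTB this excess was 3.03 and 2.81 in the GFP arrays and 3.76 and 3.35 in the ZNF750-labelled arrays. For GAPDH the excess was 0.63 and 0.61 against 0.85 and 0.80. The part of this shift in the enzymes' differences was not tested. Of 6 squamous markers, 4 had a probe set with 1 symbol (KRT5, KRT14, CDH1 and DSP), and these read between 10.96 and 13.09. KRT14, a basal keratin, rose 2.15-fold (1.10 ± 0.035, limma adjusted p = 1.19e-05) and KRT5, its partner, 1.18-fold (0.24 ± 0.032, adjusted p = 0.00280), while CDH1 and DSP did not pass. Summed over the 4 genes, the squamous list was 47.2 and 47.3 with GFP and 48.9 and 49.1 with ZNF750, and its part in the enzymes' differences was not tested. The 4 leukocyte markers lay between 3.90 and 6.09, the 3 endothelial markers between 3.57 and 6.20, and the fibroblast markers between 2.56 and 5.68 except COL1A1, whose highest value was 8.55. Summed over its 4 genes, the fibroblast list was 20.8 to 21.1 with GFP and 21.8 in both ZNF750-labelled arrays, and its part was likewise not tested. Within that list, COL1A2 differed by 0.48 ± 0.16 on its brightest probe set and did not pass (limma adjusted p = 0.0867). On the mean of its 3 probe sets COL1A2 rose by 0.47 (limma adjusted p = 0.0196), though 0 of the 3 passed in the fit over all probe sets.

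**Figure D1:**
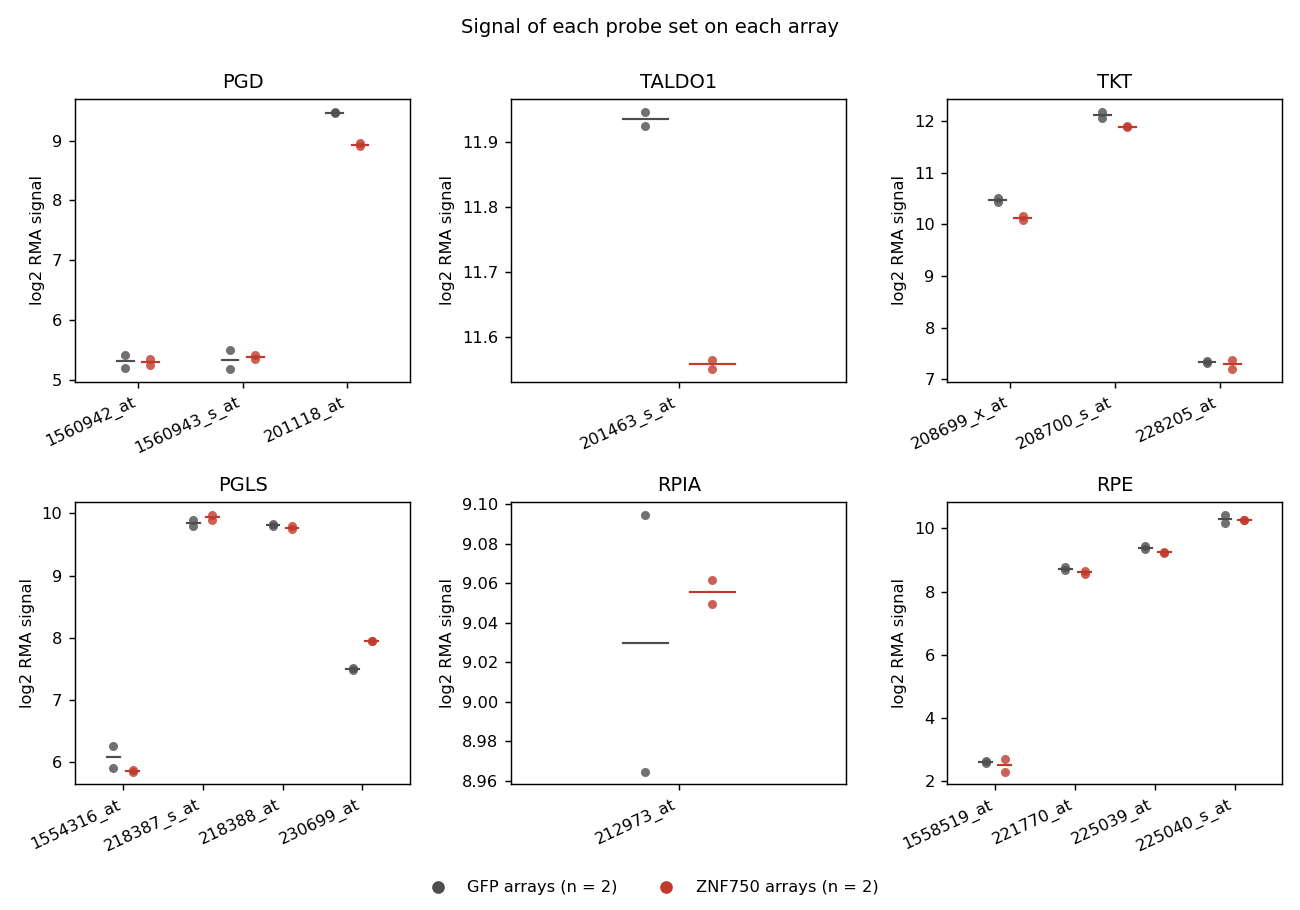
Log2 RMA signal of the 16 enzyme probe sets on each array, 1 panel per gene with its own vertical scale; grey points are the 2 GFP arrays, red points the 2 ZNF750-labelled arrays, and short lines their means. Both red points lie under both grey points for PGD 201118_at, TALDO1 201463_s_at, TKT 208699_x_at and TKT 208700_s_at, and above them for PGLS 230699_at. Among probe sets that did not pass, they also lie under them for PGLS 1554316_at, PGLS 218388_at, RPE 221770_at and RPE 225039_at. For PGLS 218387_s_at, which did not pass either, they lie above them.

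In the oxidative branch, PGD encodes 6-phosphogluconate dehydrogenase, the enzyme that makes NADPH and releases carbon dioxide to leave ribulose 5-phosphate. Its probe set 201118_at read 9.46 and 9.48 in the GFP arrays and 8.95 and 8.91 in the ZNF750-labelled arrays. The groups lay apart by far more than their arrays differed, and the fall was 1.45-fold (-0.54 ± 0.057 log2 units, limma adjusted p = 0.00225; 95% interval of the fold 1.32 to 1.59). It had the largest fall of the 16, and 2.3% of all probe sets had a lower difference. The other probe sets of PGD, 1560942_at and 1560943_s_at, read between 5.18 and 5.49 on every array, close to the median probe set of the table (5.47). These values lay within the range of the leukocyte markers (3.90 to 6.09). On both of these PGD probe sets the groups overlapped, with differences of -0.014 ± 0.12 and 0.040 ± 0.13 that did not pass (limma adjusted p = 0.965 and 0.896). The mean over the 3 probe sets was -0.17 ± 0.067 and did not pass (adjusted p = 0.141).

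PGLS encodes 6-phosphogluconolactonase, which hydrolyses the lactone that precedes PGD's substrate. Its brightest probe sets, 218387_s_at and 218388_at, read 9.81 and 9.89 and 9.80 and 9.84 with GFP, against 9.98 and 9.90 and 9.79 and 9.75 with ZNF750. Their arrays did not overlap, but in opposite directions, and neither passed, at 0.093 ± 0.058 (adjusted p = 0.363) and -0.047 ± 0.052 (adjusted p = 0.639; the sign turned under cyclic loess, repeated quantile normalization and centring). Their 95% intervals, -0.042 to 0.23 and -0.17 to 0.076, do not reach the difference of PGD. The probe set 230699_at rose 1.36-fold, from 7.48 and 7.51 to 7.95 and 7.94 (0.45 ± 0.071, limma adjusted p = 0.00879). The dimmest, 1554316_at, read 5.90 and 6.25 with GFP and 5.87 and 5.85 with ZNF750, a difference of -0.22 ± 0.13 that did not pass (adjusted p = 0.346). The 4 probe sets of PGLS thus differed in size and sign, and their mean was 0.068 ± 0.061 (adjusted p = 0.511). The files do not say which transcript each probe set reads.

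In the non-oxidative branch, TALDO1 encodes transaldolase, which moves a dihydroxyacetone unit between sugar phosphates. Its single probe set, 201463_s_at, was among the brightest of the table and read 11.92 and 11.95 with GFP and 11.55 and 11.57 with ZNF750. Both ZNF750-labelled arrays lay below both GFP arrays, and the fall was 1.30-fold (-0.38 ± 0.038, limma adjusted p = 0.00185; 95% interval of the fold 1.22 to 1.38). Its standard error was the smallest of the 16. The call of TALDO1 rests on this single probe set, whose suffix _s_at is given where probes may also bind other transcripts.

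TKT encodes transketolase, the thiamine-dependent enzyme that links the branch to glycolysis through fructose 6-phosphate and glyceraldehyde 3-phosphate. Its brightest probe set, 208700_s_at, read 12.06 and 12.17 with GFP and 11.88 and 11.91 with ZNF750, and fell 1.17-fold (-0.23 ± 0.047, limma adjusted p = 0.0223). A second, 208699_x_at, went from 10.44 and 10.52 to 10.09 and 10.16 and fell 1.28-fold (-0.36 ± 0.053, limma adjusted p = 0.00717). Both carry a suffix, _s_at or _x_at, of the kind noted for TALDO1. The third, 228205_at, without that suffix, read 7.35 and 7.31 with GFP and 7.20 and 7.38 with ZNF750. Its groups overlapped, and its difference of -0.039 ± 0.090 did not pass (adjusted p = 0.837). The call of 208700_s_at ended under cyclic loess (-0.16, adjusted p = 0.0715), under repeated quantile normalization (-0.17, 0.0626) and when arrays were centred on brighter probe sets (-0.17, 0.0656), whereas those of 208699_x_at, PGD and TALDO1 passed under these scalings.

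RPIA, ribose 5-phosphate isomerase, makes the ribose 5-phosphate used for nucleotides. Its single probe set, 212973_at, read 8.96 and 9.09 with GFP and 9.06 and 9.05 with ZNF750. The ZNF750-labelled arrays lay between the GFP arrays, and the difference was 0.026 ± 0.066 (limma adjusted p = 0.858; 95% interval -0.13 to 0.18).

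RPE, ribulose-phosphate 3-epimerase, feeds xylulose 5-phosphate to transketolase. On 225040_s_at, its brightest probe set, it read 10.44 and 10.18 with GFP and 10.26 and 10.26 with ZNF750, so that the groups overlapped (-0.044 ± 0.082, adjusted p = 0.795; the sign turned after each of the 3 scalings above). On 225039_at it read 9.43 and 9.34 against 9.27 and 9.23, and on 221770_at 8.77 and 8.69 against 8.65 and 8.57. Both sets of ZNF750 values were below those of GFP, yet the differences of -0.13 ± 0.060 and -0.12 ± 0.067 did not pass (limma adjusted p = 0.209 and 0.308). The fourth probe set, 1558519_at, was near the floor of the table (2.31 to 2.71) and carried no call (adjusted p = 0.733). A probe set annotated to both RPEL1 and RPE, and so outside the rule, went from 7.20 and 7.27 to 6.85 and 6.79 (-0.41 ± 0.083, limma adjusted p = 0.0209), and which of the 2 genes it reads cannot be told apart.

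**Figure D2:**
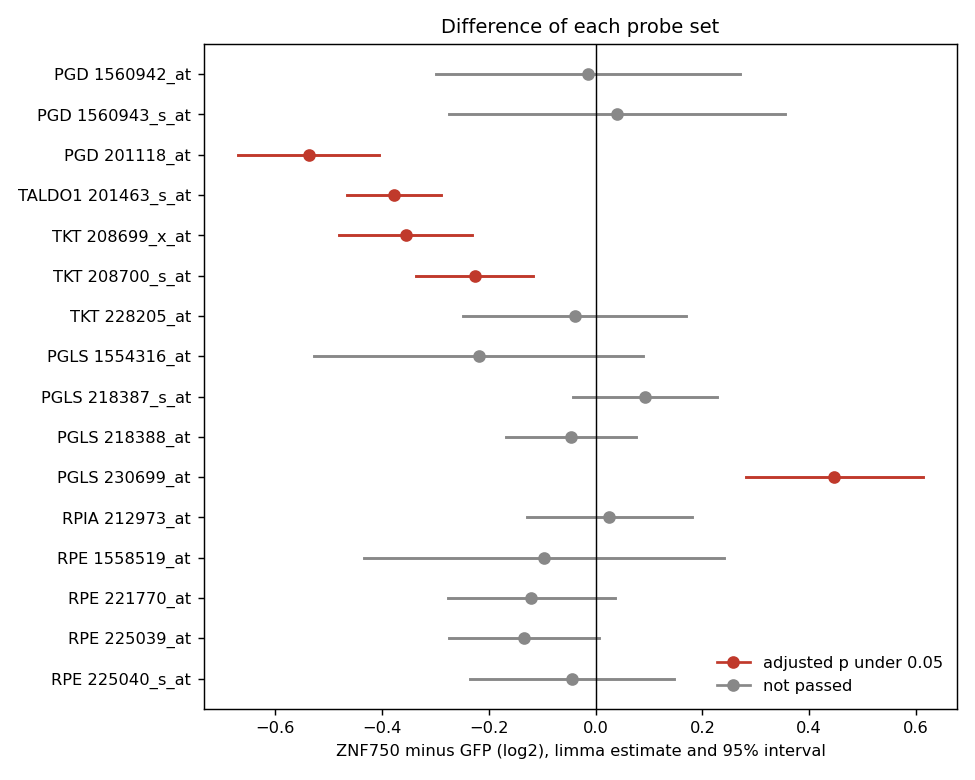
Difference between ZNF750-labelled and GFP arrays for each of the 16 enzyme probe sets on the log2 scale (points) with limma's 95% interval (lines); red marks an adjusted p under 0.05. The 4 probe sets that fell belong to PGD, TALDO1 and TKT, and the 1 that rose belongs to PGLS.

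The arrays of the groups did not overlap for 8 of the 16 enzyme probe sets in the lower direction and for 2 in the higher direction. Over all probe sets this held for 24.3% in the lower and 29.9% in the higher direction. The fall of 1 enzyme relative to another was taken as the log ratio of their brightest probe sets on each array, for all 15 pairs of the 6 genes. PGD fell by 0.63 relative to PGLS, by 0.56 relative to RPIA, by 0.16 relative to TALDO1 and by 0.31 relative to TKT. TALDO1 fell by 0.40 relative to RPIA and by 0.15 relative to TKT. Relative to RPE, PGD fell by 0.49 and TALDO1 by 0.33, while the arrays overlapped for RPE against TKT, PGLS and RPIA. The pairs with PGLS rest on its brightest probe set, and its next brightest differed in the other direction. Those with TKT rest on 208700_s_at, which fell by 0.23. The other called probe set of TKT, 208699_x_at, fell by 0.36, close to the 0.38 of TALDO1. The order of TKT against TALDO1 thus depends on the probe set. The arrays did not overlap for 12 of the 15 pairs, which reuse the values of the 6 genes. The same count for pairs of other genes was not tested. For these 12 pairs the exact two-sided permutation test gave p = 0.333 (0.417 after Benjamini-Hochberg adjustment over the pairs). An unadjusted 0.333 is the smallest that 2 arrays against 2 can give. The log ratios therefore describe the 4 arrays, and this test could not have passed 0.05 whatever their size.

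**Figure D3:**
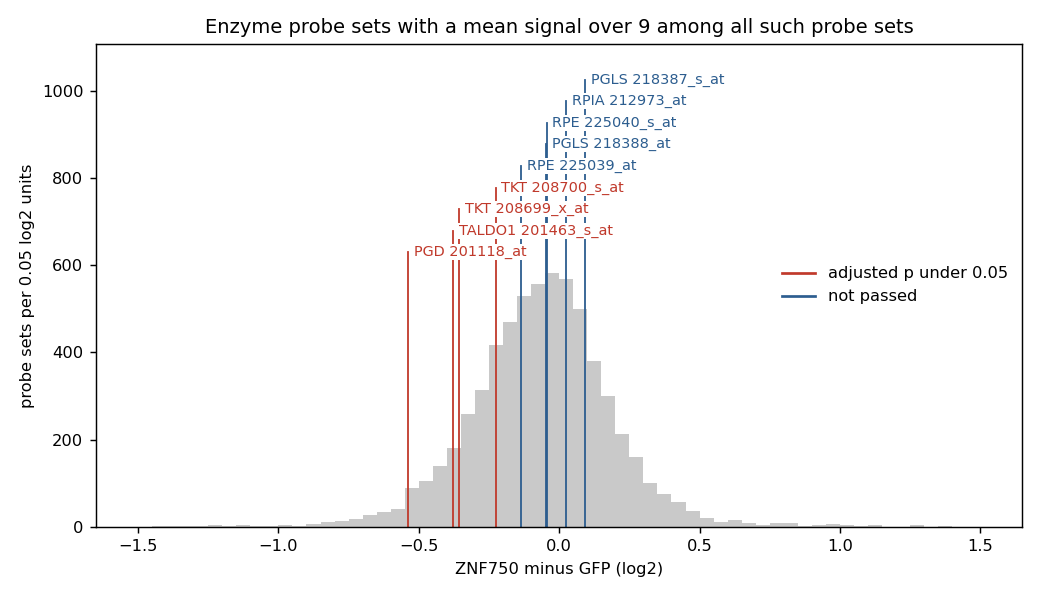
Histogram of ZNF750 minus GFP differences (log2, bins of 0.05) over the probe sets with a mean signal over 9, with values beyond 1.5 in either direction not drawn; lines mark the 9 enzyme probe sets at that level, red where the adjusted p was under 0.05. PGD, TALDO1 and TKT lie on the lower side of the distribution, and RPIA, PGLS and RPE near its centre.

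These calls rested on all 4 arrays. Without GFP replicate 1 none of the 5 called probe sets passed (limma adjusted p = 0.113 to 0.151), nor did they without GFP replicate 2 (0.0935 to 0.166), where 5 had an unadjusted p under 0.05 in each case. Without ZNF750 replicate 1, PGD and TALDO1 passed, and without ZNF750 replicate 2, TALDO1. All 5 kept the sign of their difference each time, between 0.17 and 0.56 in size. Without the intensity trend in limma's variance prior, PGD passed (adjusted p = 0.0450) and the others did not (0.0554 for PGLS 230699_at, 0.0696 for TALDO1, 0.0855 and 0.185 for TKT).

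Genes around the pathway were read on 1 probe set per gene, where 7.79% of 19775 genes rose and 10.2% fell and the median difference was 0.036. Of 13 genes of side reactions and exits, 12 were measured: 2 rose, 2 fell and 8 did not pass, and the median difference was 0.044. RBKS, ribokinase, which phosphorylates free ribose, rose 1.26-fold (0.33 ± 0.093, limma adjusted p = 0.0462). PGM2, a phosphopentomutase, rose 1.22-fold, from 9.86 and 9.70 to 10.07 and 10.06 (0.29 ± 0.063, adjusted p = 0.0183). PRPSAP2, a regulatory subunit associated with phosphoribosyl pyrophosphate synthetase, fell by 0.36 on the log2 scale (SE 0.069, adjusted p = 0.0106). PRPSAP1, its paralog, named after its value was seen, fell by 0.21 (SE 0.056, adjusted p = 0.0422). The catalytic subunits PRPS1 and PRPS2, likewise named afterwards, differed by 0.10 ± 0.058 and 0.074 ± 0.042 and did not pass. Both took the other sign on the mean of their probe sets (-0.056 and -0.11, neither passing), and 1 of the 2 probe sets of PRPS2 fell in the fit over all probe sets. PRPS1L1, dim at 3.91 to 4.42, differed by -0.32 ± 0.13 (adjusted p = 0.147). The calls of RBKS and PGM2 ended with the replicate block (0.0625) and with the mean of probe sets (0.17, 0.262), respectively. That of PRPSAP1 ended with the mean of probe sets (adjusted p = 0.0645) and under cyclic loess (0.0956), repeated quantile normalization (0.0653) and centring (0.0606), and 0 of its 2 probe sets passed in the fit over all probe sets.

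Among 4 other enzymes that make cytosolic NADPH, IDH1, the cytosolic isocitrate dehydrogenase, fell from 10.88 and 10.73 to 10.59 and 10.56 (-0.23 ± 0.057, limma adjusted p = 0.0302), and 0 rose (0 also at an unadjusted limma p under 0.05). Malic enzyme, ME1, differed by 0.091 ± 0.049 and did not pass (adjusted p = 0.251), with the opposite sign on the mean of its probe sets (-0.085). ME1 passed as higher under cyclic loess (0.16, limma adjusted p = 0.0421) and repeated quantile normalization (0.17, 0.0368). Under both of these scalings, 1 gene of this list rose and 0 fell. The folate enzymes MTHFD1 (-0.029 ± 0.044) and ALDH1L1 (0.16 ± 0.16) did not pass. The fall of IDH1 did not pass under cyclic loess (0.0552), under repeated quantile normalization (0.0636) or with the mean of probe sets (0.0590). Over the 4 genes the median difference was 0.031.

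Of 10 glycolytic enzymes that share or lie next to an intermediate of the pathway, 3 rose, 1 fell and 6 did not pass, and the median difference was 0.075. ALDOC, an aldolase, rose 1.44-fold (0.53 ± 0.062, limma adjusted p = 0.00184), from 8.09 and 8.10 to 8.60 and 8.64. HK1, which makes glucose 6-phosphate, rose 1.17-fold (0.22 ± 0.041, adjusted p = 0.00954), and TPI1, triose phosphate isomerase, 1.11-fold (0.14 ± 0.033, adjusted p = 0.0232). PFKM, a phosphofructokinase, fell by 0.26 (SE 0.056, adjusted p = 0.0161). HK2, also a hexokinase and named after its value was seen, differed by -0.019 ± 0.043 and did not pass (adjusted p = 0.814). On the mean of its 3 probe sets it fell by 0.33 (limma adjusted p = 0.0218). In the fit over all probe sets 1 of those 3 fell. The number that rose was 6 under cyclic loess and 5 under repeated quantile normalization. With the mean of probe sets 3 rose and 2 fell.

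Of 9 NRF2 targets other than the pathway's own enzymes, 0 rose (1 at an unadjusted limma p under 0.05), 2 fell and 7 did not pass, and the median difference was -0.063. NQO1, a quinone reductase that uses NADPH, fell from 13.04 and 13.10 to 12.73 and 12.76 (-0.33 ± 0.037, limma adjusted p = 0.00156). SLC7A11, the cystine transporter, fell by 0.22 (SE 0.054, adjusted p = 0.0298), but not under cyclic loess (0.0703) or repeated quantile normalization (0.0884). HMOX1, heme oxygenase, differed by 0.25 ± 0.077 in the other direction (adjusted p = 0.0668) and passed as higher under cyclic loess (0.0267), repeated quantile normalization (0.0229) and centring (0.0154). GSR, glutathione reductase, differed by -0.13 ± 0.065 on its brightest probe set (adjusted p = 0.234) and by -0.38 on the mean of its 2 probe sets, where it passed (0.0130). Over the 35 genes measured in the 4 lists, 5 rose and 6 fell. Without GFP replicate 1 or 2 none passed in limma (5 and 6 higher, 5 and 7 lower at an unadjusted p under 0.05), and with either ZNF750 replicate left out 1 rose and 2 fell.

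**Figure D4:**
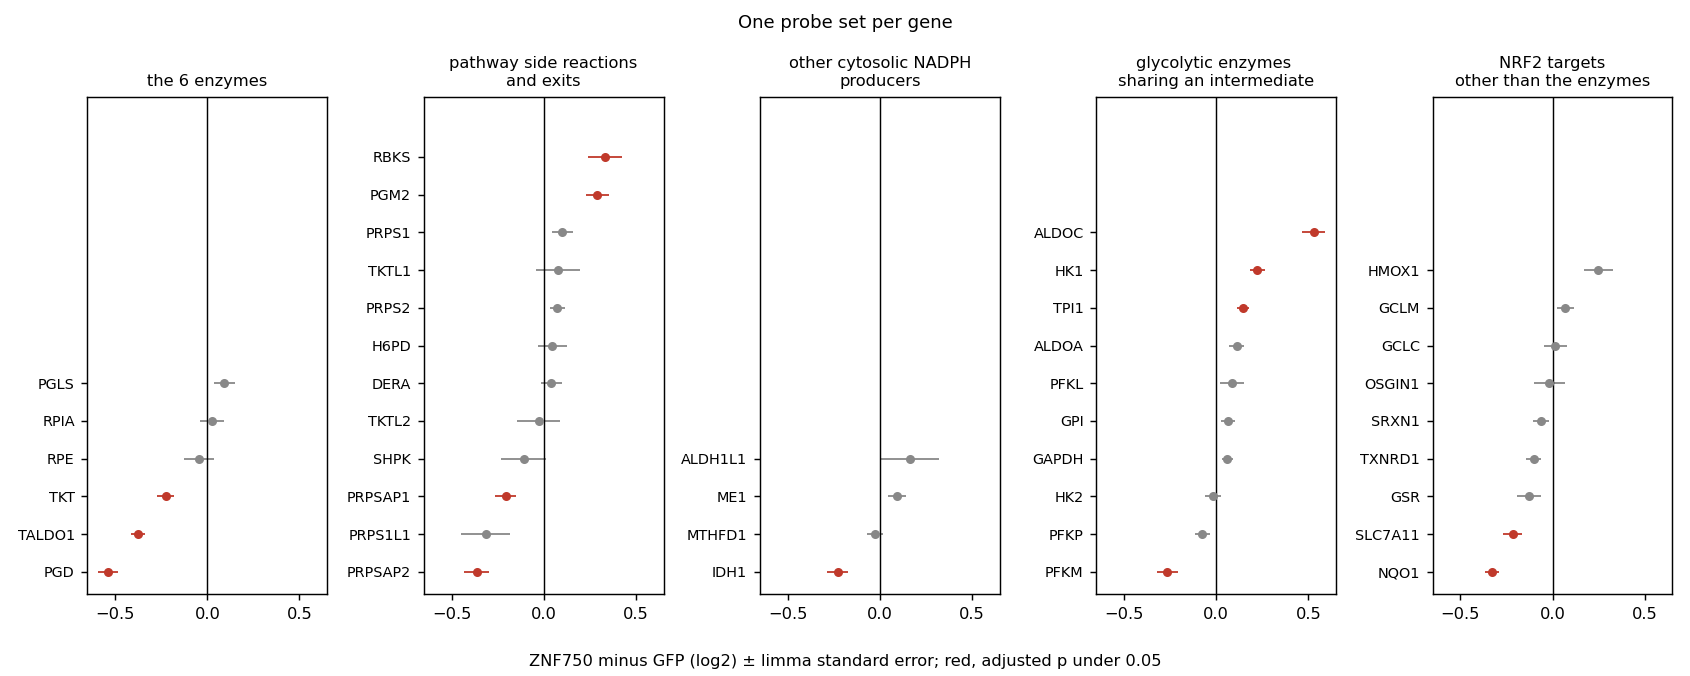
Difference between ZNF750-labelled and GFP arrays (log2, points) with limma's standard error (lines) on 1 probe set per gene, for the 6 enzymes and the 4 lists of neighbouring genes; red marks an adjusted p under 0.05. PGD had the lowest difference drawn, at -0.54, and ALDOC the highest, at 0.53.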

How the data were processed

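The data are 4 Affymetrix HG-U133 Plus 2.0 arrays, 2 from CaSki cells given GFP and 2 from CaSki cells given ZNF750. Log2 values deposited by the authors were made with RMA, in a version not stated, per the submitters' processing notes. RMA combines background correction, quantile normalization and a summary per probe set, and compresses low signals, so that differences of dim probe sets are understated. Symbols came from the platform annotation: 41091 probe sets carried 1 symbol, 1801 several and 11721 none. All 16 enzyme probe sets matched the same symbol in RefSeq by Entrez identifier.

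Limma 3.58.1 (R 4.3.3) was run with lmFit and with eBayes (intensity trend; residual degrees of freedom 2) on the 54613 probe sets that were not controls. Benjamini-Hochberg adjustment covered all of them, two-sided, and an adjusted p under 0.05 was called. Gene lists used the probe set with 1 symbol of highest mean per gene, 19775 genes. Every probe set of the enzymes and the up to 4 genes of each list that differed most in absolute size were named by rule. The enzymes and the lists were chosen with earlier results of these data known. On simulated data of 54613 probe sets with 200 changed, 6% of the changes of 0.25 log2 units were recovered, 46% of those of 0.5 and 100% of those of 1. Limma made 11 false calls among 137, whereas the data gave 2348 higher and 3927 lower calls. Recovery at that number of calls, or at the signal levels of the enzymes, was not tested. Duplicates are called biological in the design text, which does not say how cultures were made. The p-values thus measure the spread between these arrays, with each variance drawn by limma toward the intensity trend over all probe sets. The number of arrays limits the precision. Alternatives covered the variance prior, dim probe sets, scaling, centring, the threshold, probe set choice, the replicate block and leaving out each array.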

Additional observations from a re-analysis of the deposited data

How the results depend on the processing

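Of the 5 enzyme probe sets that passed, 5 passed the same way with dim probe sets left out, with only probe sets of 1 symbol tested and with the replicate number as a block. With cyclic loess, repeated quantile normalization, centring on brighter probe sets or a threshold of 0.01, 4 passed, and the TKT probe set 208700_s_at did not. Without the intensity trend 1 fell and 0 rose (unadjusted limma p under 0.05: 4 fell and 1 rose). Without probe sets ending in _s_at or _x_at, which leaves TALDO1 with none, 1 fell, with the mean of probe sets 2 of the 6 genes fell and 0 rose, and with the brightest probe set per gene 0 rose. With 1 array left out, 0 to 2 fell and 0 rose (unadjusted limma p under 0.05: 4 or 5 fell and 1 rose).

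Over all probe sets, 2348 rose and 3927 fell. The counts were 520 and 754 without the intensity trend, 704 and 1474 at a threshold of 0.01, 1230 and 1845 without _s_at and _x_at, 1541 and 2013 with the brightest probe set per gene, and 1043 and 1600 with the mean of probe sets. Leaving out 1 array gave 8 to 267 higher and 1 to 661 lower. Centring on brighter probe sets gave 4168 higher. Lower probe sets made up 62.6% of the calls, 54.2% under cyclic loess, 53.1% under repeated quantile normalization and 46.2% under centring. Of the listed genes, 5 rose and 6 fell, against 1 and 0 without the intensity trend, 10 and 3 under cyclic loess, 9 and 3 under repeated quantile normalization, and 2 and 1 at a threshold of 0.01. Without _s_at and _x_at 3 fell. Leaving out 1 array gave 0 to 1 higher and 0 to 2 lower.

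Of the 5 called enzyme probe sets and the 11 called listed genes, 0 changed sign under the alternatives that gave them a value. HK2 aside, differences of the enzyme probe sets and other genes named in the text that had not passed changed sign as follows. Under cyclic loess they were PGLS 218388_at (0.019), PGD 1560943_s_at (-0.0044), RPE 225040_s_at (0.023) and MTHFD1 (0.038). Under repeated quantile normalization they were PGLS 218388_at (0.0015), RPE 225040_s_at (0.034), TKT 228205_at (0.015) and MTHFD1 (0.043). Under centring they were PGLS 218388_at (0.0064), PGD 1560942_at (0.039), RPE 225040_s_at (0.0091), TKT 228205_at (0.014) and MTHFD1 (0.024). Without _s_at and _x_at, PGLS gave -0.047 and ME1 -0.21, and the mean of probe sets turned ME1 (-0.085), PRPS1 (-0.056) and PRPS2 (-0.11). With 1 array left out, the differences ranged from -0.12 to 0.090 for PGD 1560942_at, from -0.12 to 0.20 for PGD 1560943_s_at, from -0.039 to 0.091 for RPIA, from -0.30 to 0.10 for RPE 1558519_at and from -0.17 to 0.086 for RPE 225040_s_at. They ranged from -0.13 to 0.050 for TKT 228205_at, from -0.073 to 0.40 for ALDH1L1 and from -0.071 to 0.012 for MTHFD1.

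Same-numbered arrays deviated together (r = 0.13 across probe sets), which with 2 pairs does not settle whether the numbers pair the arrays. With the replicate block 4 enzyme probe sets fell and 1 rose.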
